A study of Mus musculus with 18 samples.

Results

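The comparison of 16 months with 6 months covers 6 of the 18 samples of the series, which are the Cy3 channels of 6 of its 9 arrays. All arrays of these 2 ages were taken by their labels, 3 labelled 16 months and 3 labelled 6 months, and no measured value entered the choice. Every sample was RNA of isolated thymocytes from C57BL/6 mice, the common inbred laboratory strain, and the labels name no genotype, treatment or sex. Each array carried the Cy3-labelled RNA of an older mouse and Cy5-labelled RNA of 1 month old mice as a common reference. The design describes the reference as a pool, while the labels number single 1 month mice. The labels number the older mice separately, so p-values measure the spread between these few mice. The fit took this spread from all 9 arrays, which include 3 of 24 month old mice that are not compared here. The thymus of each mouse had been broken up and strained, fat cells had been washed away, and red cells had been lysed in an ammonium chloride buffer, but a suspension could still hold other blood and stromal cells. Each value below is a log2 ratio of the older mouse to the 1 month reference on the same array, given for replicates 1, 2 and 3 in turn. A difference is the mean at 16 months minus the mean at 6 months, in log2 units, in which the dye effect cancels because the dyes were not swapped.

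The thymus produces T cells, which pass from double-negative through double-positive stages, rearrange their receptor genes with the recombinases Rag1 and Rag2, and leave as single-positive cells. The organ shrinks from early adult life, and fat, B cells and plasma cells take up a growing share of it. Innate-like T cells such as NKT cells also mature there, and mature T cells can return to it from the blood. In these bulk RNA samples, more cells of a type and more RNA per cell cannot be told apart.

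Thymocyte markers were present on all 6 arrays: Cd3e, Cd3d, Cd4, Cd8a, Dntt and Ptcra were well above background on each, with differences between -0.11 and 0.10. Rag1, a further marker, differed by -1.5 on the probe described below. Among all 9 arrays, the share of features well above background was 79.6% to 94.2% in the Cy3 channel and 90.5% to 95.4% in the Cy5 channel. The 16 month arrays did not form a uniform group. The log ratios of 16 month replicate 3 correlated at 0.73 with those of 6 month replicate 2, against 0.48 and 0.66 with 16 month replicates 1 and 2, across probes that are not independent. The mean log ratio of 5 adult haemoglobin probes was -1.91, -1.89 and -1.18 at 6 months and 1.94, 1.35 and -0.66 at 16 months. Haemoglobin was therefore high on 16 month replicates 1 and 2 and closer to the 6 month arrays on replicate 3.

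No probe passed the test at 16 against 6 months. Of 37487 tested probes, 0 (0%) reached an adjusted p under 0.05 in limma, and 2385 (6.36%) had an unadjusted p under 0.05. The smallest adjusted p was 0.176, for an anti-myosin light chain probe whose own adjusted p ranged from 0.083 to 1.0 over the alternative settings. All 3 arrays of 16 months lay above all 3 of 6 months for 2690 probes (7.18%), and below them for 2484 (6.63%). Over 15319 genes with 1 probe each, the corresponding counts were 1280 (8.36%) and 969 (6.33%). Both shares are the background for the gene list counts below. The middle of the distribution was narrow, with 5th and 95th percentiles of -0.36 and 0.40. The median spread within an age was 0.16 (SD pooled over the 3 ages of the fit, n = 3 per age). Among 216 probes more than 1 log2 unit higher at 16 months, 64 were immunoglobulin chain probes, and 103 probes were more than 1 unit lower.

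The reference channel was compared in the same way. By the design text it is a pool, the same on every array, while if it came from single 1 month mice, as the labels number them, it compares different animals. Between the Cy5 channels of the same 16 and 6 month arrays, 0 probes (0%) passed in limma and 3557 (9.49%) had an unadjusted p under 0.05. In that channel 1883 probes (5.02%) stood higher without overlap and 3673 (9.8%) lower. With the Cy3 channel alone, the like measure for the ages, 3234 probes had an unadjusted p under 0.05.

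The counts depended on single arrays. The number of probes at an unadjusted p under 0.05 was 4156 without 16 month replicate 3, 1184 without replicate 1 and 1291 without replicate 2 of that age. It was 2741, 1578 and 1549 without 6 month replicates 1, 2 and 3. Without 16 month replicate 3, 1 probe passed, for an IgG1 heavy chain transcript (BC057688). It read -0.05, -0.14 and -0.21 at 6 months and 2.04, 1.91 and 0.25 at 16 months. Its difference was 2.11 (SE 0.11, limma adjusted p = 0.0139) without that array and 1.53 (adjusted p = 0.77) with it. Over the other alternative settings its adjusted p lay between 0.413 and 1.0. Of the 2690 probes with higher 16 month arrays, replicate 3 was the closest to 6 months for 1715 (63.8%). It was also the closest for 1512 (60.9%) of the 2484 lower probes. For these reasons the gene values below are descriptions, and no gene is called as raised or lowered with age. Up to 2 genes of each list are named for their small p, so their separation is in part a result of the choice.

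Immunoglobulin transcripts stood furthest above their 6 month values. The 126 immunoglobulin chain probes, of which 121 were tested, were found by their descriptions, and some share sequence, so they are not independent. Their median log ratio was 0.13, 0.01 and 0.05 on the 6 month arrays and 1.84, 1.32 and 0.51 on the 16 month arrays. The median was thus near the 1 month reference in every 6 month mouse, and above it in every 16 month mouse, least so in replicate 3. The difference was positive for 115 of 121 probes, with a median of 1.11 against 0.01 over all tested probes. All 3 arrays stood higher for 80 probes (66.1%), beside 7.18% of all probes, and lower for 0. In 76 of these 80, replicate 3 was the lowest of the 16 month arrays. Of the 121 probes, 7 entered the test only through their signal at 16 months, so their higher values follow from the filter. Among the other 114, 74 (64.9%) stood higher and 0 lower, with a median of 1.00.

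**Figure D1:**
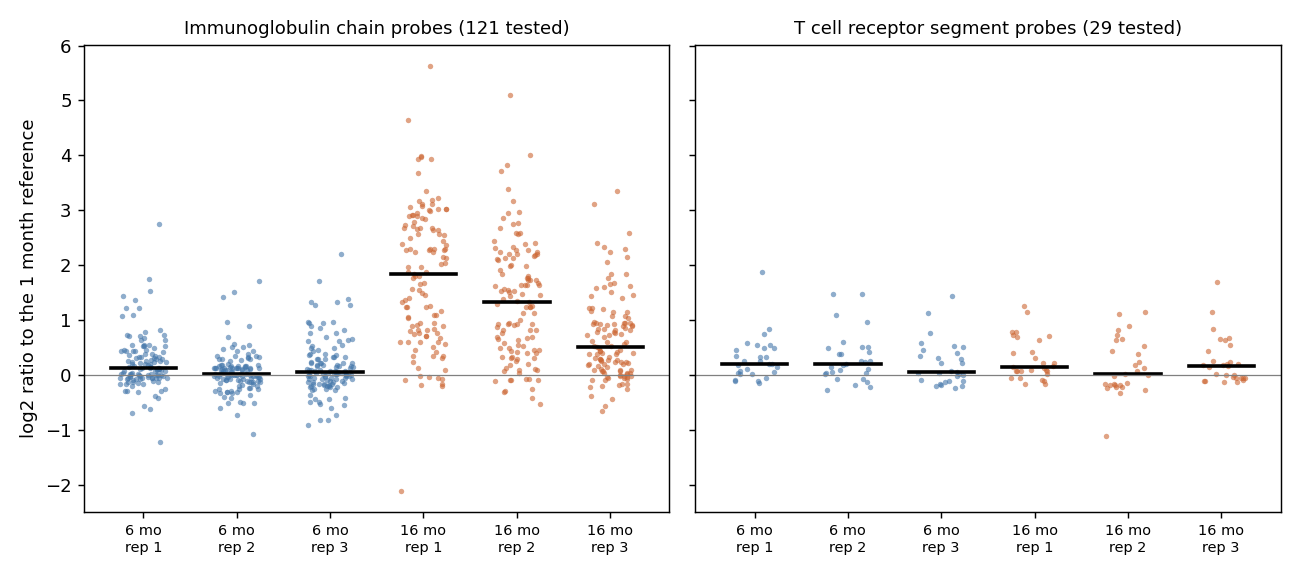
Log2 ratio to the 1 month reference of 121 immunoglobulin chain probes (left) and 29 T cell receptor segment probes (right) on each array of 6 months (blue) and 16 months (orange). Points are probes and bars are medians: the immunoglobulin medians are 0.13, 0.01 and 0.05 at 6 months and 1.84, 1.32 and 0.51 at 16 months, while the receptor segment medians lie between 0.01 and 0.20 on all 6 arrays.

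Heavy and light chains showed the same direction. The median difference was 1.25 over 52 heavy chain probes, 0.88 over 31 kappa, 1.73 over 7 lambda and 0.76 over 25 light chain probes whose class is not given. A further 6 probes with no chain given had a median of 1.48. The 7 probes that entered the test only through 16 months are heavy or kappa chain probes. They remain in these medians and in most of those below. A stricter filter, with both channels well above background on all 6 arrays, leaves them out. With it the median was 1.20 for heavy chains, 0.64 for kappa and 0.97 for all immunoglobulin chain probes. Lambda chain medians were 0.55, 0.13 and 0.68 at 6 months and 2.78, 1.99 and 1.77 at 16 months, so this class was also clearly separated on replicate 3. The probe with the smallest p of the comparison is an anti-myosin light chain variable probe (NAP111974-1), at 0.43, 0.35 and 0.16 against 2.56, 2.13 and 2.05. All 3 older arrays were alike there, and the difference was 1.93 (SE 0.18, n = 3 per age, limma adjusted p = 0.176). Without the haemoglobin-high 16 month replicates 1 and 2, the median over immunoglobulin chain probes was 0.40, and with the haemoglobin level as a covariate 0.84. It was 0.72 with normexp background correction and 1.46 without replicate 3. The heavy chain median was 0.77 with the covariate and 0.36 without the haemoglobin-high replicates.

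The largest difference was that of a kappa V-V L7 chain probe (ENSMUST00000032040). It read 0.52, -1.08 and -0.20 at 6 months and 3.02, 3.82 and 3.12 at 16 months, with the 6 month signal well above background on 1 of 3 arrays. The gamma-1 heavy chain probe V00795, from the constant region of IgG1, read -0.26, 0.08 and -0.27 against 2.43, 4.0 and 1.19. A heavy chain probe made on a mu chain transcript (AB069917) read 0.73, -0.42 and -0.50 against 3.93, 2.44 and 1.44. Neither was well above background on any 6 month array, so their 6 month values are levels near the background and give no fold. T cell receptor segment probes, the corresponding genes of T cells, showed no such shift. Their median difference over 29 tested probes was -0.03, with 1 higher and 3 lower without overlap.

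Plasma cell genes followed the immunoglobulins. Jchain, which joins IgM and IgA into multimers, read 0.80, 0.58 and 1.28 at 6 months and 3.01, 2.58 and 2.03 at 16 months. Every 16 month array was above every 6 month array, and a second Jchain probe differed by 1.99. The difference was 1.66 (SE 0.27, limma adjusted p = 0.77). Mzb1, a chaperone of antibody secretion, read -0.01, -0.07 and -0.03 against 1.43, 0.57 and 0.37. Tnfrsf17, the survival receptor BCMA of plasma cells, read -0.27, -0.31 and -0.19 against 0.57, 0.55 and -0.01. Both were separated, with replicate 3 nearest the 6 month level. Of 20 tested genes of the plasma cell list, 10 were higher without overlap and 0 lower, with a median difference of 0.43 against 0.02 over all tested genes. The median was 0.23 with normexp, 0.22 with the haemoglobin covariate and 0.16 without the haemoglobin-high replicates. The transcription factors Irf4 (0.47) and Prdm1 (0.27), which drive plasma cell formation, were among the 10. Xbp1 (0.49) and Sdc1 (0.94) differed in the same direction with overlapping arrays. Pigr, the receptor that carries IgA and IgM across epithelia, read -1.56, -1.16 and -1.32 against 0.02, -0.54 and -0.28. The Pigr difference of 1.08 was 0.49 with normexp.

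The B cell list had 9 of 22 tested members higher and 0 lower, with a median difference of 0.14, which was 0.22 without 6 month replicate 3 and 0.08 without the haemoglobin-high replicates. Blnk, the adaptor that links the B cell receptor to its downstream kinases, read -0.10, -0.42 and 0.03 at 6 months and 2.09, 0.93 and 0.69 at 16 months. It was the list's largest difference, at 1.40 (SE 0.41). Of the B cell markers Cd79b, Ms4a1 and Cd79a, the first differed by 0.57 and Ms4a1 by 0.47, both without overlap, and Cd79a by 0.05 with overlap. Pou2af1, a coactivator that binds with octamer factors at immunoglobulin promoters, read -0.04, -0.04 and 0.13 against 1.28, 0.66 and 0.31. Tnfrsf13c, the BAFF receptor of B cells, read 0.15, 0.27 and -0.07 against 2.36, 1.23 and 0.62. In Blnk, Pou2af1 and Tnfrsf13c, 16 month replicate 1 was the highest array. The Blnk promoter holds the octamer ATGCAAAT, the motif for which Pou2af1 is known, on its reverse strand. The 200 bases before its start, from RefSeq on GRCm38.p6 at chr19:40994222-40994421 (minus strand, written 5′ to 3′ along the gene), are shown with the match in capitals, which starts 130 bases before the start.
Blnk: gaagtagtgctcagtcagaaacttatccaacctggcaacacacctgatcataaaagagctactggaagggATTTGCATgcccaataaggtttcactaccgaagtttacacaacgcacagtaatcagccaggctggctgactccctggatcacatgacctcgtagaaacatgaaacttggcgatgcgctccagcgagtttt
The octamer was searched on both strands of 32851 RefSeq promoters and was found in 453 (1.38%). It was found in 2 of 17 promoters of the B cell list and in 0 of 18 of the plasma cell list. Promoters of the immunoglobulin segments were not used here.

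The chemokine receptor Cxcr6 had the largest difference of the 15 higher genes named by rule (given below). It marks NKT and other innate-like and tissue-resident T cells. Its log ratio was 1.06, 0.61 and 0.95 at 6 months and 3.38, 3.57 and 1.89 at 16 months, so all 3 older mice were separated and all 6 mice were above 1 month. The difference was 2.07 (SE 0.41, limma adjusted p = 0.77), a 4.20-fold ratio, and 1.02 without the haemoglobin-high replicates. Il18r1, the interleukin 18 receptor that such cells carry, read 0.25, 0.12 and 0.39 against 2.00, 2.70 and 1.01. Il2rb, the beta chain of the interleukin 2 and 15 receptors, read 0.37, 0.14 and 0.39 against 1.29, 1.56 and 0.53. Cxcr6, Il18r1 and Il2rb thus had the same order of arrays, with replicate 2 highest and replicate 3 lowest. The innate-like T cell list had 11 of 25 members higher, 0 lower and a median of 0.16. The median was 0.08 both with Cy3 alone and without the haemoglobin-high replicates. These included Cxcr3 (0.78), Ccr2 (0.68), Ifng (0.28) and Tbx21 (0.10), the factor that directs Ifng expression.

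Cytotoxic genes were separated in part. Ccl5, a chemokine stored by cytotoxic and memory T cells, read -0.35, -0.59 and -0.35 at 6 months and 1.87, 1.24 and 0.57 at 16 months. Klrk1, the activating receptor NKG2D, read 0.31, 0.78 and 0.00 against 1.68, 1.62 and 0.91. Its signal was near the background, well above it on 2 of 3 arrays of 6 months. The Klrk1 difference of 1.04 was 0.30 with normexp and 0.58 with Cy3 alone. Nkg7, a cytotoxic granule protein, read 0.58, 0.26 and 0.44 against 1.82, 1.61 and 0.93. All 3 genes had replicate 3 as the lowest 16 month array. The NK and cytotoxic list had 14 of 29 members higher, 0 lower and a median difference of 0.37. It had 13 of 28 without a member that entered the test only through 16 months. The median was 0.23 without 16 month replicate 1, 0.17 without replicates 1 and 2, 0.21 with normexp, and 0.24 both with Cy3 alone and with the haemoglobin covariate. The difference was 1.05 for Cst7, 0.67 for Xcl1, 0.57 for Ccl4 and 0.56 for Gzmk. The markers that define NK cells did not follow: Ncr1 differed by -0.59, Klrb1c by 0.19, Gzma by -0.03 and Prf1 by 0.05, all with overlapping arrays. Over 46 chemokine ligands and receptors, 16 were higher and 0 lower (15 of 45 without a member that entered the test only through 16 months), among them Cxcr5 (0.87), Ccr6 (0.68) and Ccl6 (0.98).

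Genes of mature single-positive cells and of thymic egress stood higher in 11 of 27 tested members, with 0 lower and a median difference of 0.33. Itgb7, an integrin chain of T cells homing to the gut, read 0.05, -0.21 and -0.04 at 6 months and 1.00, 0.83 and 0.46 at 16 months. Gimap3, a GTPase of lymphocyte survival, read -0.01, 0.01 and 0.06 against 0.70, 0.52 and 0.33. Both were separated on all arrays, which follows in part from their choice by p. Ly6c1 read 0.32, 0.05 and 0.48 against 1.74, 1.24 and 0.64. The difference was 0.57 for Ly6a, and for the calcium-binding proteins S100a6 and S100a4 it was 0.91 and 0.78. Ccr7 (0.33) and Klf2 (0.42), a receptor and a transcription factor of emigration, overlapped. Il7r, the receptor of the survival cytokine interleukin 7, differed by 0.98 on the brightest probe, and by -0.01, 0.09 and 0.15 on the other probes. The list median was 0.20 both with normexp and without the haemoglobin-high replicates, and 0.38 with haemoglobin as a covariate.

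Genes of early progenitors and double-negative cells gave 6 of 21 higher and 1 lower, with a median of 0.12, which was 0.06 with normexp, 0.20 with Cy3 alone and 0.25 without 6 month replicate 1. Dtx1, a Notch target, read 0.38, 0.14 and 0.18 at 6 months and 1.18, 1.40 and 0.52 at 16 months. Lyl1, a transcription factor of lymphoid progenitors, read -0.14, -0.28 and -0.13 against 0.63, 0.62 and 0.25. Hoxa9, a homeobox factor of the same cells, went the other way, at 0.36, 0.61 and -0.16 against -0.71, -1.37 and -0.35. It was not well above background on any 16 month array, and was so on 2 of 3 arrays of 6 months. With the floor taken for 16 months it was 1.54-fold lower, but its difference of -1.08 was -0.12 with normexp. Hhex differed by 1.30 and -0.77 on its 2 probes.

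The double-positive list had 0 of 23 members higher and 4 lower, with a median of -0.03. Its lower members were small differences: Rag2 -0.19, Themis -0.17, Rmnd5a -0.17 and Arpp21 -0.14. The largest single value was that of a Rag1 probe designed on a cDNA clone. It read 0.76, 0.66 and 0.33 at 6 months and -1.68, -1.27 and 0.20 at 16 months. Replicates 1 and 2 were far below, while replicate 3 lay just under the lowest 6 month array. The difference was -1.5 (SE 0.56), but -0.14 with haemoglobin as a covariate, and -0.06 and 0.13 on the other Rag1 probes. The T cell receptor complex list gave 1 of 30 higher and 3 lower (median 0.07), and T lineage transcription factors 1 of 27 in each direction (median -0.05). Cd3e differed by 0.10, Cd4 by 0.09 and Ptcra, the pre-T cell receptor chain, by -0.02.

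Antigen presentation genes were higher in part. MHC class II molecules present peptides on B cells, dendritic cells, macrophages and thymic epithelium. The class II list had 8 of 16 tested members higher and 0 lower, with a median of 0.32, which was 0.18 with normexp and 0.60 with the haemoglobin covariate. Cd74, the invariant chain that guards the peptide groove, read 0.58, 0.22 and 0.19 at 6 months and 1.63, 1.34 and 0.92 at 16 months. H2-Eb1 read 0.72, 0.43 and 0.31 against 1.17, 1.38 and 0.98. H2-DMb1, part of the peptide exchange factor, read 0.33, -0.03 and 0.19 against 1.17, 0.67 and 0.82. All 3 were separated. H2-Aa differed by 0.64 and Ctss, the protease that trims the invariant chain, by 1.00. The regulators Ciita (0.12) and Rfx5 (0.02) overlapped. Class II promoters are known for a shared upstream module whose last element is an inverted CCAAT box, ATTGG. The 200 bases before the start of 3 separated class II genes are shown for this shared arrangement, with ATTGG, or CCAAT on the other strand, in capitals. They are from RefSeq on GRCm38.p6, at chr17:34287824-34288023 (minus) for H2-Aa, chr17:34305667-34305866 (plus) for H2-Eb1 and chr17:34152991-34153190 (plus) for H2-DMb1.
H2-Aa: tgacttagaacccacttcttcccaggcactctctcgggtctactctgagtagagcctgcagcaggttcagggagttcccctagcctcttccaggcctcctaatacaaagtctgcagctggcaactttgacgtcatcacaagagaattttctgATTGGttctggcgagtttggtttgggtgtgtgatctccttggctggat
H2-Eb1: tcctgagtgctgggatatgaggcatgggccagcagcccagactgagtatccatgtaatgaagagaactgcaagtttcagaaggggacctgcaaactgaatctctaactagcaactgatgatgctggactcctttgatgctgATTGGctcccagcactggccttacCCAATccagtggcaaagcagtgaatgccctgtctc
H2-DMb1: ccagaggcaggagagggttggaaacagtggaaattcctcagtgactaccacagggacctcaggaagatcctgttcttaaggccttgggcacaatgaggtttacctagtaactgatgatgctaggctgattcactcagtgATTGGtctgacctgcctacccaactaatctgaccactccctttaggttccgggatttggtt
The matches lie 48 bases before the start in H2-Aa, 59 and 35 in H2-Eb1 and 61 in H2-DMb1. ATTGG was found in 8 of 12 class II promoters (66.7%) and in 9641 (29.3%) of all promoters on both strands.

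MHC class I and immunoproteasome genes were higher in 8 of 22 members and lower in 0, with a median difference of 0.31, or 0.16 without the haemoglobin-high replicates. H2-Q2 read 0.74, 0.48 and 0.25 at 6 months and 1.20, 1.19 and 0.95 at 16 months. Tap1, which pumps peptides into the endoplasmic reticulum, read -0.02, 0.03 and -0.40 against 0.75, 0.35 and 0.34. H2-D1 differed by 0.84, and the immunoproteasome subunits Psmb9 by 0.26 and Psmb10 by 0.30. Class I genes are close in sequence, so their probes may share signal. Interferon response genes gave 13 of 55 higher and 2 lower, with a median of 0.17. The median was 0.08 without 16 month replicate 1, 0.11 without 6 month replicate 3, 0.10 with normexp and 0.30 with the haemoglobin covariate. Oasl2 differed by 0.85, Gbp3 by 0.63 and Irf1 by 0.46, while Mx1 differed by -0.13.

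**Figure D2:**
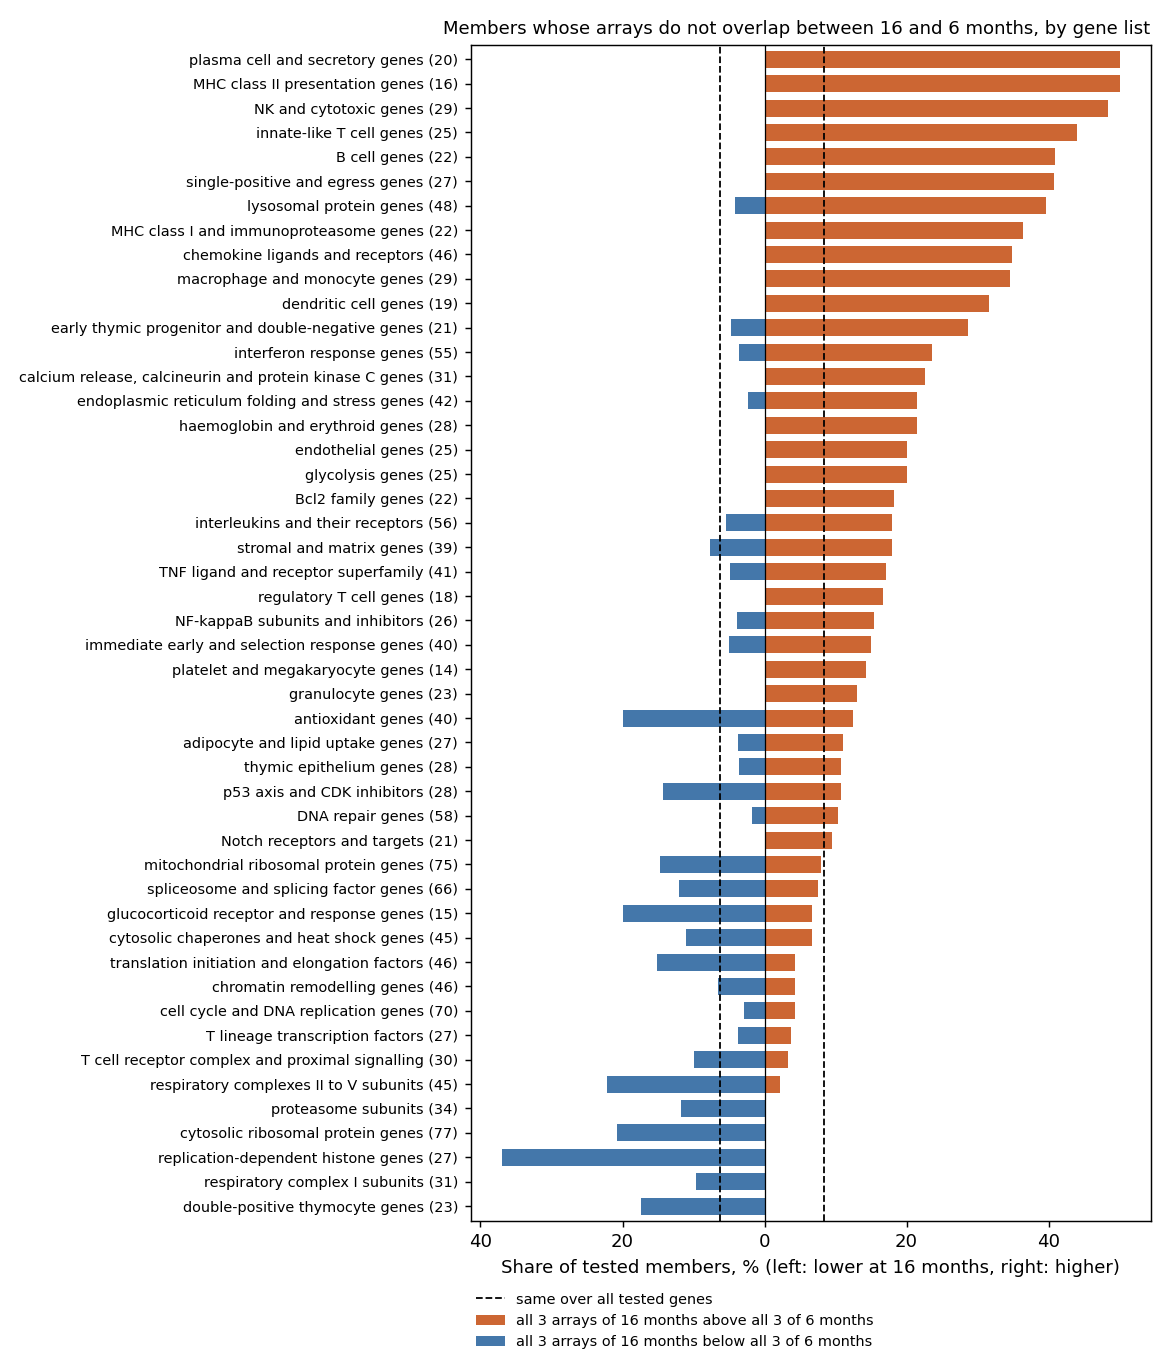
Share of the tested members of each gene list (number in brackets) whose 16 month arrays all lie above (orange, right) or all below (blue, left) the 6 month arrays; lists of under 10 members are left out. Dashed lines mark 8.36% and 6.33%, the same shares over all 15319 tested genes: plasma cell, MHC class II and NK and cytotoxic genes reach 48.3% to 50% on the right, and replication-dependent histones 37.0% on the left.

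Macrophage genes were separated in 10 of 29 members, all higher, with a median of 0.15, or 0.10 without the haemoglobin-high replicates. Their differences ran from -0.76 to 1.39. An unadjusted limma p under 0.05 was reached by 4 higher members and 1 lower member. Lyz2, the lysozyme of macrophages and granulocytes, read -0.66, -0.29 and -0.25 at 6 months and 0.89, 1.55 and 0.52 at 16 months. Lyz1, its close paralog with which it may share signal, read -0.14, -0.02 and -0.08 against 1.12, 1.97 and 0.78. Replicate 2 was the highest array for both. Apoe differed by 0.93 and the complement genes C1qc by 0.76 and C1qa by 0.50. The defining markers Adgre1 (0.24) and Csf1r (0.03) overlapped, and Cd68 differed by 0.20 without overlap. Retnla, an alternatively activated macrophage product, read 0.51, 0.69 and 0.37 against 2.16, 1.5 and 1.33. Lysosomal protein genes stood higher in 19 of 48 members and lower in 2, with a median of 0.19, or 0.10 without the haemoglobin-high replicates. They included the cathepsins Ctss (1.00) and Ctsh (0.65), Lgmn (0.72), Grn (0.81) and Cd63 (0.58). Dendritic cell genes were higher in 6 of 19 and lower in 0, with Itgax at 0.53 and Xcr1 at 0.17. Zbtb46, which marks conventional dendritic cells, was not well above background on any 16 month array.

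Red cell and granulocyte RNA moved with single arrays. Hba-a1, an alpha globin, read -1.85, -2.04 and -1.28 at 6 months and 2.59, 2.03 and -0.48 at 16 months. Alas2, the first enzyme of haem synthesis in red cell precursors, read -1.18, -1.08 and -0.94 against 1.96, 1.64 and -0.24. Both were high on 16 month replicates 1 and 2 and much lower on replicate 3. The Hbb-b1 probe, for an adult beta globin, did not show this order, at -0.63, -0.20 and -0.15 against -0.25, -0.17 and -0.19, a difference of 0.12 with overlap. The erythroid list had 6 of 28 members higher, 0 lower and a median of 0.12, with its per-array medians from -0.16 to -0.14 at 6 months and from -0.09 to 0.05 at 16 months. S100a8, a calcium-binding protein of neutrophils, read -3.51, -3.0 and -2.54 at 6 months and -1.71, 1.47 and -4.03 at 16 months. S100a9, its partner, read -3.41, -2.55 and -2.20 against -1.21, 2.13 and -3.71. Both were high on replicate 2 and lowest of all 6 arrays on replicate 3, so the ages overlapped. The granulocyte list had 3 of 23 members higher, 0 lower and a median of 0.46, which was 0.22 with normexp, 0.25 with the haemoglobin covariate, 0.04 without replicate 2 and -0.11 without replicates 1 and 2. Slpi, a protease inhibitor of mucosa and neutrophils, was among the 3, at -0.19, 0.32 and 0.17 against 2.38, 2.30 and 0.63. The part of these cells in the values of other genes was not tested beyond the haemoglobin covariate.

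**Figure D3:**
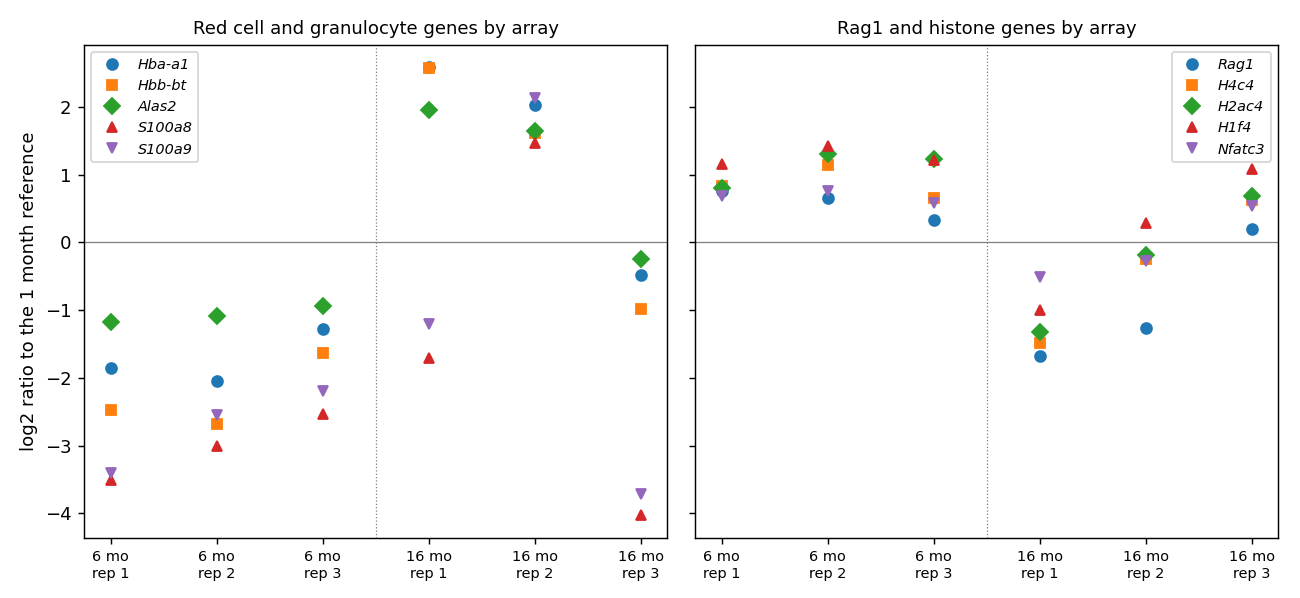
Log2 ratio to the 1 month reference by array for red cell and neutrophil genes (left) and for Rag1, 3 histone genes and Nfatc3 (right). Hba-a1, Hbb-bt and Alas2 are high on 16 month replicates 1 and 2 (2.59 and 2.03 for Hba-a1) and low on replicate 3 (-0.48), S100a8 and S100a9 peak on replicate 2, and the genes on the right are lowest on 16 month replicate 1 and closest to 6 months on replicate 3.

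Stromal and epithelial RNA gave mixed values. The stromal and matrix list had 7 of 39 members higher and 3 lower, with a median of 0.06. C3, the central complement component, read -0.05, 0.10 and 0.04 at 6 months and 0.78, 2.27 and 1.21 at 16 months. Dcn, the matrix proteoglycan decorin, read 0.69, 0.84 and 0.72 against 0.99, 2.10 and 1.77. In both genes replicates 2 and 3 were higher than replicate 1, unlike Hba-a1. Efemp1, an extracellular matrix protein, had the same order at 0.25, 0.49 and 0.05 against 1.02, 2.55 and 2.31. Msln, a surface protein of mesothelium, read 0.02, 0.25 and -0.00 against 0.73, 1.77 and 1.61. With normexp the Efemp1 difference of 1.70 was 0.80, and the Msln difference of 1.28 was 0.58. Col1a1 (0.67) and Col3a1 (0.13), which define fibroblasts, overlapped.

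The thymic epithelium list had 3 of 28 members higher (10.7%) and 1 lower, beside 8.36% and 6.33% of all genes. Its median was 0.10, or 0.01 without the haemoglobin-high replicates. Foxn1, the master regulator of thymic epithelium, differed by -0.02, Krt5 by 0.07 and Krt8 by 0.41. Ccl25, the chemokine that draws progenitors into the thymus, read -2.63, -2.54 and -2.12 at 6 months and -2.0, -2.31 and -2.29 at 16 months. It was far below the 1 month reference at both ages, and the ages overlapped. Psmb11, the cortical thymoproteasome subunit, was not tested. Adipoq, a marker of fat cells, was lower at 16 months without overlap, at 0.09, 0.38 and 0.74 against -0.03, -0.25 and -0.08. Cfd (-0.00) and Plin1 (-0.10), further fat cell markers, overlapped. The adipocyte list gave 3 of 27 higher (11.1%) and 1 lower with a median of 0.06. Endothelial genes gave 5 of 25 higher and 0 lower, and platelet genes 2 of 14 and 0.

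Among groups with lower 16 month values, replication-dependent histones had the highest share of lower members among lists of 10 or more. Their mRNAs lack a poly(A) tail and are made as DNA is copied. How far the linear amplification copies RNA without such a tail was not tested, so the values may not follow the histone mRNA level. Of 58 listed genes 27 were tested, of which 10 (37.0%) were lower without overlap, beside 6.33% of all genes, and 0 higher. The list median was 0.22, 0.18 and 0.43 on the 6 month arrays and -0.18, -0.07 and 0.16 on the 16 month arrays, a median difference of -0.26. With haemoglobin as a covariate it was -0.06, without 16 month replicates 1 and 2 it was -0.14, and without 6 month replicate 3 it was -0.17. H2ac4 read 0.81, 1.30 and 1.23 at 6 months and -1.32, -0.19 and 0.68 at 16 months. H4c4 read 0.84, 1.15 and 0.65 against -1.49, -0.24 and 0.62. H1f4, a linker histone, read 1.16, 1.43 and 1.22 against -1.0, 0.28 and 1.08. In all 3 genes replicate 1 was lowest and replicate 3 almost at the 6 month level, the array order of the Rag1 probe. The histone H4 probes can share coding sequence and are not independent. The H2B genes H2bc1 and H2bc12 differed less but more evenly, and values of other H2B genes are not given here. H2bc1 read -0.13, -0.11 and -0.11 against -0.67, -0.41 and -0.43, a difference of -0.38 (SE 0.10, limma adjusted p = 0.77). H2bc12 read -0.19, -0.26 and -0.11 against -0.94, -0.48 and -0.45 on 1 probe. The H2bc12 difference was -0.44 on that probe and -0.35 on the other. Genes of the cell cycle and DNA replication, with which histones are co-expressed, gave 3 of 70 higher and 2 lower, with a median of 0.04.

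Histone H2B promoters are known for the same octamer as the immunoglobulin promoters. The sequences of H2bc1, at chr13:23934157-23934356 (minus), and H2bc12, at chr13:22035621-22035820 (plus), are shown for comparison with Blnk, whose difference had the opposite sign. The octamer match is in capitals, 164 bases before the start in H2bc1 and 30 in H2bc12.
H2bc1: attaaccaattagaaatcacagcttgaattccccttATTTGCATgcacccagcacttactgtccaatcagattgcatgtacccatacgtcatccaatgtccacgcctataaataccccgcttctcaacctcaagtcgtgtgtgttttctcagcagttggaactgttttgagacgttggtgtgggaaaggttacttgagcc
H2bc12: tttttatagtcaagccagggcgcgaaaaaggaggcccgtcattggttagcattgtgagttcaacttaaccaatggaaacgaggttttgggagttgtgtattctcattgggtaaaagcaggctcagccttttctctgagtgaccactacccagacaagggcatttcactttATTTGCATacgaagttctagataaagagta
The octamer was found in 4 of 5 tested H2B genes with a promoter in RefSeq and in 9 of 23 of the histone list (39.1%), beside 1.38% of all promoters. The match describes these letters only.

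Genes of translation and respiration differed by little. Their counts stand beside 8.36% of all genes higher and 6.33% lower without overlap. Cytosolic ribosomal protein genes were lower without overlap in 16 of 77 members (20.8%) and higher in 0, with a median of -0.06. Rps3a1 read -0.09, -0.11 and 0.11 at 6 months and -0.51, -0.42 and -0.28 at 16 months on 1 probe, and differed by -0.48 on the other. Rpl24 read -0.05, -0.12 and -0.04 against -0.60, -0.48 and -0.24. Both were separated by small amounts. Rps26 differed by -0.49, and Rpl22 by -0.47 on 1 probe and -0.00 on the other. The list median was 0.00 with haemoglobin as a covariate, -0.26 without 6 month replicate 1 and 0.04 without 6 month replicate 2. Respiratory complexes II to V gave 10 of 45 lower (22.2%) and 1 higher, with a median of -0.10, or -0.16 without 16 month replicate 2. Atp5j2, a subunit of ATP synthase, read -0.35, -0.14 and 0.03 against -0.93, -0.68 and -0.44. Complex I gave 3 of 31 lower (9.68%) and 0 higher (median -0.07). Mitochondrial ribosomal proteins gave 11 of 75 lower (14.7%) and 6 higher (8.0%), with a median of -0.02. Proteasome subunits gave 4 of 34 lower (11.8%) and 0 higher. Psma4 among them read 0.37, 0.41 and 0.39 against -0.01, 0.05 and 0.18.

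The named genes with the largest lower values came from no common list. By the rule, they are the 15 largest differences in each direction among probes with separated arrays and an unadjusted p under 0.01, so their separation is a result of the choice. Cth, the enzyme that makes cysteine from cystathionine, read -0.24, -0.32 and -0.30 at 6 months and -1.76, -1.42 and -1.70 at 16 months. It was not well above background on any 16 month array, and was so on 2 of 3 arrays of 6 months. Cth was 1.39-fold lower against the floor and had a limma adjusted p of 0.607. Its difference of -1.34 was -0.18 with normexp. Rbm3, a cold-inducible RNA-binding protein, read -0.63, -0.95 and -0.54 against -1.45, -1.66 and -1.21. A second Rbm3 probe differed by -0.02 and its relative Cirbp by 0.01. Klhl9, an adaptor of a ubiquitin ligase, read 1.10, 0.80 and 0.68 against -0.40, 0.08 and 0.18. Dst, a cytoskeletal linker, differed by -0.86 on the named probe and by 0.04, 0.61 and 0.53 on the others. With normexp the named Dst probe differed by -0.13. Prox2 differed by -0.53 on the named probe and 0.01 on the other, and Cpne3 by -0.67 and 0.01. With normexp the named probes differed by -0.18 for Prox2 and -0.27 for Cpne3. The other probe differed by -0.15 for Klhl9, -0.25 for Zfp955a and -0.07 for 1110059G10Rik, and those of Zfp207 by -0.08 and -0.70. Other probes thus showed almost no difference or the other sign for Rbm3, Dst, Prox2 and Cpne3. For Klhl9, Zfp955a, 1110059G10Rik and 1 further Zfp207 probe, the sign was the same and the difference smaller. The named probe was chosen for the smallest p. Tiparp, a target of the aryl hydrocarbon receptor, read 0.14, 0.18 and 0.27 against -0.46, -0.65 and -0.17. Pfdn1, a subunit of the prefoldin chaperone, read -0.05, 0.07 and 0.05 against -1.01, -0.66 and -0.24. The difference was -0.74 for Spata6, -0.66 for Ahdc1, -0.61 for both Zfp955a and Zfp207, -0.52 for 1110059G10Rik and -0.90 for Klhl9. Of the 15 genes, 12 had 16 month replicate 3 closest to 6 months, and the same held for 11 of the 15 higher genes.

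**Figure D4:**
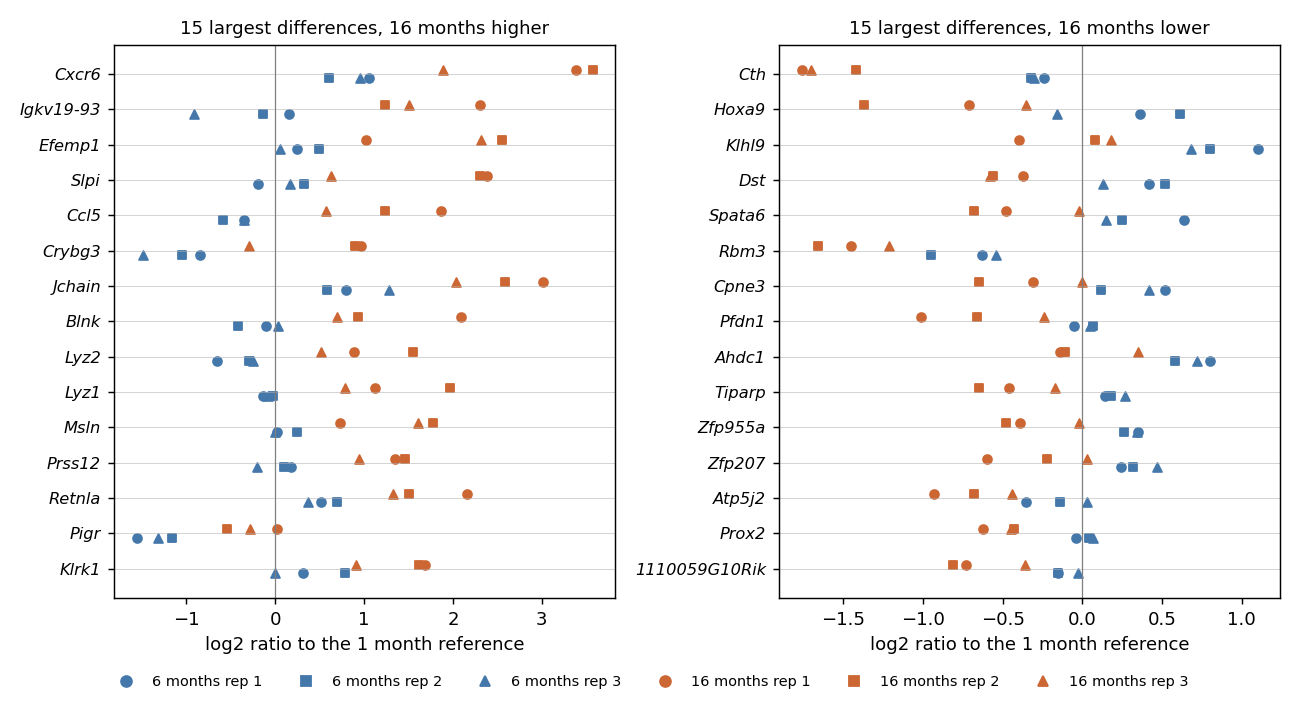
Log2 ratio to the 1 month reference of the 15 genes with the largest higher (left) and the 15 with the largest lower (right) values at 16 months among separated probes. Blue marks are 6 month and orange marks 16 month arrays, with a shape per replicate; Cxcr6 reaches 3.38 and 3.57 on replicates 1 and 2 but 1.89 on replicate 3 (triangle), which is the array nearest to 6 months for 11 of the 15 genes on the left and 12 on the right.

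Other members of the higher group were Crybg3, at -0.85, -1.05 and -1.49 against 0.97, 0.90 and -0.29, and Prss12, a serine protease, at 0.18, 0.10 and -0.21 against 1.35, 1.46 and 0.94. The kappa segment Igkv19-93 read 0.16, -0.14 and -0.91 against 2.30, 1.24 and 1.51. All 3 were separated, and Crybg3 and Igkv19-93 were not well above background on some 6 month arrays. The difference of 1.66 for Crybg3 was 0.39 with normexp. For Prss12, 1.23 became 0.61 with normexp, and for Igkv19-93, 1.98 became 0.95.

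Stress, survival and signalling lists held few large values. Their counts stand beside 8.36% of all genes higher and 6.33% lower without overlap, and several lie near these shares. Endoplasmic reticulum folding genes gave 9 of 42 higher and 1 lower, with a median of 0.15, which was 0.09 without 6 month replicate 3 and 0.05 without the haemoglobin-high replicates. Creld2 read 0.00, -0.04 and -0.07 at 6 months and 0.52, 0.41 and 0.16 at 16 months, and Hsp90b1 differed by 0.33. Cytosolic chaperones gave 3 of 45 higher and 5 lower. Dnajb1, a heat shock protein, read -0.10, -0.03 and -0.11 against -0.47, -0.58 and -0.36. Calcium and protein kinase C genes gave 7 of 31 higher and 0 lower. Prkca read -0.32, -0.27 and -0.33 against 0.15, 0.13 and 0.05, with all arrays of an age close together. Antioxidant genes gave 5 of 40 higher and 8 lower, with Prdx1, a peroxidase, at -0.47. Glucocorticoid response genes gave 1 of 15 higher and 3 lower. Tsc22d3, known as GILZ and induced by the hormone, read 0.35, 0.22 and 0.37 against 0.11, -0.05 and -0.07. The p53 axis and CDK inhibitor list gave 3 of 28 higher and 4 lower, with Bax, which triggers cell death at mitochondria, at 0.35 and Fas, a death receptor, at -0.25. DNA repair gave 6 of 58 higher and 1 lower. Trp53bp1, which protects broken ends, read 0.09, 0.43 and 0.25 against -0.15, -0.13 and -0.18, and differed by 0.17 on its other probe. The Bcl2 family gave 4 of 22 higher and 0 lower, and Mcl1 differed by -0.22.

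The remaining lists gave the following counts, beside 8.36% higher and 6.33% lower of all genes. Notch receptors and targets gave 2 of 21 higher and 0 lower, splicing factors 5 of 66 and 8, chromatin remodelling genes 2 of 46 and 3, and translation factors 2 of 46 and 7. Regulatory T cell genes gave 3 of 18 and 0, with a median of 0.03. Interleukins and their receptors gave 10 of 56 and 3, with Il1b, an inflammatory cytokine, at 1.11. The TNF superfamily gave 7 of 41 and 2, NF-kappaB genes 4 of 26 and 1, and immediate early genes 6 of 40 and 2. Glycolysis genes gave 5 of 25 and 0. Egr3, induced by receptor signalling in selection, read 0.21, -0.06 and 0.11 at 6 months and 0.99, 1.11 and 0.66 at 16 months on 1 probe and differed by 0.03 on the other. Of the 49 lists, 30 had a median between -0.1 and 0.1, and 14 of these medians changed sign in at least 1 fit without an array, against 0 of the other 19.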

How the data were processed

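RNA was amplified linearly and hybridized to 9 Agilent 2-colour arrays, per the labels' protocols. The scanner files hold each channel's intensity, which the authors' software had background-subtracted and dye-normalized by LOWESS, per the file headers. The headers name Feature Extraction 7.5.1 and the submitters' processing notes 7.1. The authors also deposited a score for each channel, which was checked to equal a z-score made from log10 of that signal. Log2 ratios of processed Cy3 to Cy5 signal were taken per non-control probe (41174 distinct, 20195 without a current RefSeq symbol). Outlier spots were left out and replicate spots averaged. Tested probes had Cy3 well above background on each array of 6 or of 16 months, or Cy5 on each of the 6 arrays. In limma 3.58.1 (R 4.3.3), the 9 arrays were fitted together with 1 mean for each age, moderated by empirical Bayes (1.93 prior and 6 residual degrees of freedom) and Benjamini-Hochberg adjustment, two-sided. The model was tested on simulated data. Python 3.11.15 made the tables.

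Lists use the brightest probe of a gene. Named genes use the probe with the smallest p, without saturated probes. Of the tested probes 133 were saturated, among them a further probe each of Rag1 and Rps3a1 whose difference is given. The rule takes the 15 largest differences in each direction, up to 2 genes per list with the smallest p, and the defining cell type markers. Immunoglobulin and receptor segment probes were found by description. Members, lists and rule were chosen with earlier results of these data known. The number of arrays limits the precision. Folds against the floor replace a dim group's level with the lowest signal well above background on each array. Where the probe's own signal is higher, that signal is used. Without dye swaps these folds are open to dye bias. Some list members are not reported here.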

Additional observations from a re-analysis of the deposited data

How the results depend on the processing

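The count of 0 probes past the threshold in limma held under normexp with loess, median centring, Cy3 alone with quantile normalization, the authors' scores, only the 6 arrays, other filters on dim or saturated probes, an intensity trend and an adjusted p under 0.1. The exceptions came with arrays left out: 0 to 1 probes, and 0 to 1 higher, the 1 without 16 month replicate 3. An unadjusted p under 0.01 gave 399 probes. Between reference channels, leaving out an array, added after seeing the data, gave 0 to 1 probes, the 1 without 6 month replicate 1. Replicate numbers did not pair the mice (correlations of deviations -0.139, 0.055 and -0.12), and the fit with a replicate block called 0 probes. The count at an unadjusted p under 0.05, 2385 as reported, was 3016 with normexp, 3234 with Cy3 alone, 2271 with scores, 998 with haemoglobin as a covariate and 461 without the 2 haemoglobin-high 16 month arrays. Of 153 named probes, 0 passed under any of 18 settings, and 43 of 2732 values had another sign, none of them among the 30 genes of largest difference. Of 1080 list medians, 116 moved past the spread between arrays. With Cy3 alone the median was 0.05 for double-positive, -0.01 for regulatory T cell, 0.02 for T lineage transcription factor and 0.02 for mitochondrial ribosomal genes. Fits without an array assume that the remaining arrays of that age vary like the others. A block for scan date was not run.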

Other observations

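Genes in no list that differed by more than 1 log2 unit with separated arrays numbered 18 higher and 6 lower at 16 months. They were chosen after their values were seen, each had a limma adjusted p of 0.77 or above, and no theme was tested. Pirb, an inhibitory receptor of myeloid and B cells, read -0.28, -0.46 and -0.12 at 6 months and 1.14, 1.34 and 0.42 at 16 months, and its other probe differed by 1.19. Cybb, the catalytic subunit of the phagocyte oxidase, read -0.18, -0.40 and 0.10 against 1.23, 1.31 and 0.57, but its other probe differed by 0.23. Ncf4, a cytosolic subunit of the same oxidase, read -0.10, -0.49 and -0.35 against 1.18, 1.07 and 0.41. For these genes replicates 1 and 2 were high and replicate 3 was nearest to 6 months.

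A different array order was seen for Serpinh1, a collagen chaperone, at -0.02, 0.18 and 0.22 against 0.63, 1.63 and 1.32, and for Upk3b, a uroplakin of mesothelium and bladder, at 0.21, -0.00 and -0.71 against 0.23, 1.74 and 0.93. C1ra, a complement protease, read 1.21, 1.54 and 0.97 against 1.92, 2.67 and 2.52. In these genes replicates 2 and 3 were the high arrays, as for Efemp1 and Msln. A Bmpr1a probe designed on an expressed sequence tag was alike within each age, at -0.23, -0.23 and -0.20 against 0.83, 0.78 and 0.84, while the gene's other probe differed by -0.05. Pcm1, a centriolar satellite protein, followed the order of the Rag1 probe, at 0.74, 0.78 and 0.64 against -1.11, -0.54 and 0.49, with -0.02 and -0.17 on its other probes.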
